A study of Arabidopsis thaliana with 2 samples.

Results

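The endoplasmic reticulum (ER) is where secreted and membrane proteins of the plant cell are folded. The 36 Arabidopsis thaliana genes described here encode its chaperones, its glycan-based and oxidative folding machinery, its protein entry and exit routes, its degradation branch and the sensors of the unfolded protein response. They were taken from a given list of gene identifiers grouped by function, 36 of the 27416 genes measured, and the rule uses no measured value. The list was, however, chosen with earlier results of these data known. RNA was sequenced from whole Columbia wild-type seedlings, 10 days after germination, in 2 groups. One was treated for 4 h with 1 µmol/L flg22, the bacterial flagellin peptide whose plant receptor is the kinase FLS2. The other was the control. Each group is 1 library, and each library pools 3 biological replicates, so no difference below has a replicate check and no test over samples was possible.

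As background, BiP, an Hsp70 of the ER lumen, binds exposed hydrophobic stretches of new polypeptides and is helped by J-domain proteins that trigger its ATP hydrolysis. Glycoproteins pass through a lectin cycle of calnexin and calreticulin, in which UGGT puts a glucose back on chains that are not yet folded, and clients that fail are moved out and degraded. When unfolded proteins build up, IRE1 splices the mRNA of the transcription factor bZIP60, while bZIP28 and bZIP17 leave the ER membrane and are cut in the Golgi. In Arabidopsis, the bacterial elongation factor receptor EFR is known to need this quality control system to accumulate.

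Levels are given as read counts, as CPM, reads scaled to a library total of 1000000, and as RPKM, the CPM divided by the listed gene length in kilobases. A gene was called at least 2-fold higher or lower from log2((flg22 RPKM + 1)/(control RPKM + 1)), which understates the change of low genes. Fold values are ratios of reads per library total with exact 95% intervals that cover counting error only. The flg22 library held 24621440 reads on genes and the control library 21414567, so 3 reads, the most that a count of 0 allows, correspond to 0.122 and 0.140 CPM. The ligand-responsive kinase gene FRK1 served as a check of the labels and had 85.7 RPKM in the flg22 library, against 1.01 RPKM in the control library. Of 10 root marker genes, 9 passed the filter described next, none of these was past 2-fold in either direction, and their log2 ratios ran from -0.54 to 0.84. No root marker was at 0 in either library. Summed over the 10 markers, they took 202 CPM in the flg22 library and 258 in the control library. The part of tissue makeup in the results was not tested, and in whole seedlings fewer cells of a type and less RNA per cell cannot be told apart.

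ER folding genes stood higher in the flg22 library as a group. Together the 36 genes took 0.660% of all reads in the flg22 library (exact 95% interval 0.656 to 0.663%), against 0.343% in the control library (0.340 to 0.345%). That is 6596 against 3426 CPM, a 1.93-fold difference (1.91 to 1.94). All 36 reached the mean of 1 RPKM over both libraries used as a filter, and 14 of them, 38.9%, were at least 2-fold higher with flg22. Over the 18724 genes past that filter, 11.3% were at least 2-fold higher. No member was past 2-fold in the other direction, where 8.27% of all genes were, and 22 members lay within 2-fold.

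The median log2 ratio of the members was 0.78, with quartiles of 0.36 and 1.47, while that of all genes was -0.03, with quartiles of -0.44 and 0.42. The log2 ratio was above 0 for 32 members and below 0 for UGGT, the SAR1 gene AT4G02080, HRD1A and HRD3A. Among all genes, 48.2% were above 0 and 51.8% below. At a limit of 1.5-fold, 23 members were higher and 0 lower, sizes reached by 19.4% and 18.7% of all genes. At a limit of 4-fold, 3 members were higher, namely BIP3, BZIP60 and the J-domain gene ERDJ3A, and 0 were lower, sizes reached by 4.17% and 1.49% of all genes. Counting intervals lay wholly above 1 for 31 members and wholly below 1 for 3, as they did for 37.1% and 39.5% of all genes.

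**Figure D1:**
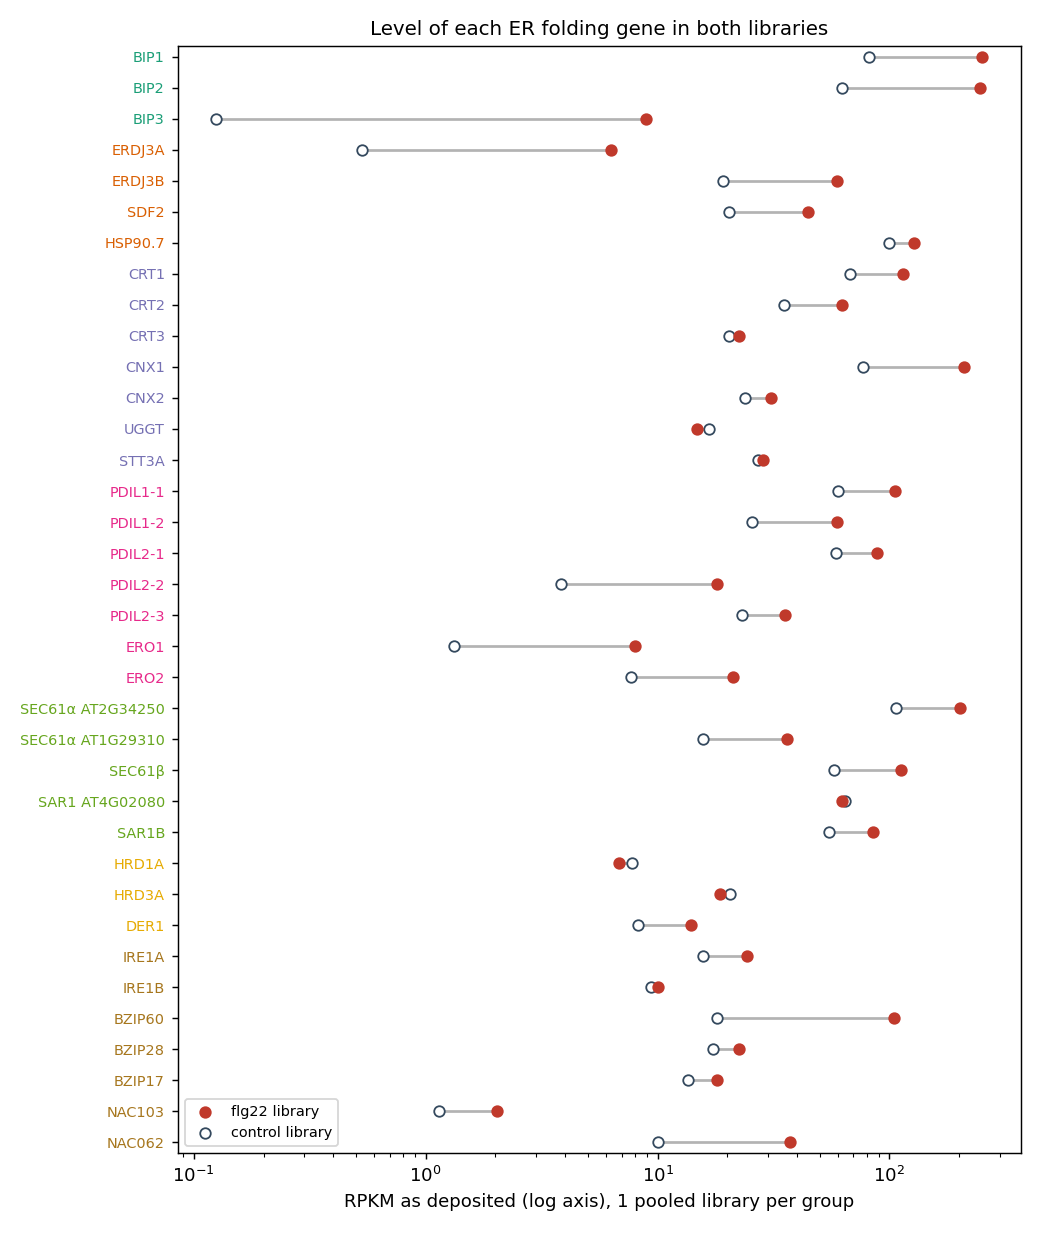
Level of each of the 36 ER folding genes, in RPKM on a log axis, with filled red points for the flg22 library and open points for the control library; the colours of the gene names mark the 7 roles. BIP3, ERDJ3A, ERO1, PDIL2-2 and BZIP60 have the widest gaps, and the points of STT3A, SAR1 AT4G02080 and IRE1B nearly coincide.

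**Figure D2:**
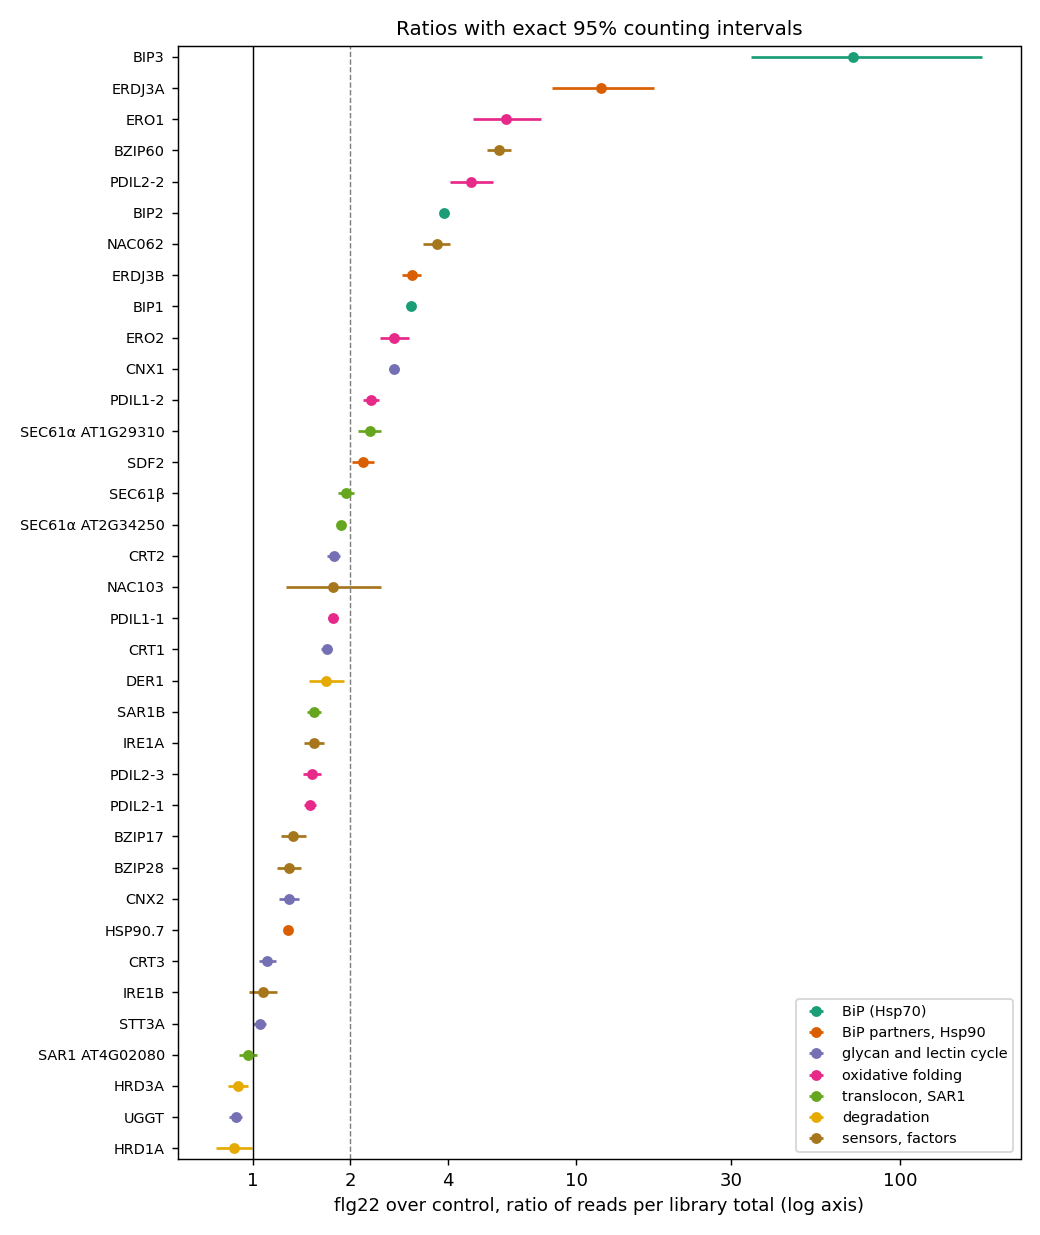
Ratio of reads per library total, flg22 over control, on a log axis for each of the 36 genes, with exact 95% counting intervals as lines. BIP3 lies farthest right at 71.7 (34.6 to 179), and the intervals of SAR1 AT4G02080 and IRE1B hold 1.

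All 3 BiP genes were at least 2-fold higher with flg22, as were 11.3% of all genes. BIP1 had 18035 reads in the flg22 library and 5100 in the control library, or 251 against 81.7 RPKM, a 3.08-fold difference (2.98 to 3.17). BIP2 had 19092 reads in the flg22 library and 4242 in the control library, or 245 against 62.6 RPKM, a 3.91-fold difference (3.79 to 4.05). These are the constitutive BiP genes, which in the flg22 library were 2 of the 3 most abundant members per kilobase of joined exons. Their coding sequences are 96.8% identical, with identical runs of up to 323 bases, so reads could have been split between them in ways the sources used here do not give. Summed, the pair took 1508 CPM in the flg22 library against 436 in the control library, a 3.46-fold difference (3.38 to 3.54) that does not depend on the split between them.

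The stress-inducible BIP3 had 577 reads in the flg22 library and 7 in the control library, 8.93 against 0.125 RPKM. This is a 71.7-fold difference, with a wide interval of 34.6 to 179 that follows from the 7 reads of the control library. On the scale with 1 RPKM added, its log2 ratio was 3.14, rank 273 among the 18724 genes. With 5 RPKM added the ratio was 1.44, and a filter at a mean of 5 RPKM left out BIP3, ERDJ3A and ERO1. BIP3 shares 73.3% of its coding bases with BIP1, with no identical run over 20 bases. Its reads were 1.53% of all BiP reads in the flg22 library and 0.0749% in the control library. Per kilobase of joined exons, BIP2 still stood 25.8 times above BIP3 in the flg22 library, and 472 times above it in the control library. BIP3 was also the sole member with an FDR under 0.05 in the authors' deposited table, 0.00550, where 0.811% of 23414 genes had such an FDR and were higher with flg22 and 0.0769% had one and were lower. For ERDJ3A the authors' deposited table gives an FDR of 0.219, for BZIP60 0.594, for ERO1 0.668 and for PDIL2-2 0.887. For the remaining 31 members it gives a higher FDR. That comparison too had 1 library per group, so none of these FDR values rests on a spread between replicates. A high FDR there does not show that a gene was unchanged.

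BIP1 and BIP2 carry the classic plant ER stress element upstream of their start codons, shown here because known bZIP28 and bZIP60 binding elements in BiP promoters have this form. In both lines the capitals mark an overlapping pair of motifs, ERSE-II (ATTGG, 1 of any base, CCACG) and UPRE-I (TGACGTGG, here on the opposite strand). Sequences are from the RefSeq TAIR10.1 genome, written 5′ to 3′ on the gene's strand. The BIP1 site is at chr5:10543425-10543446 on the minus strand, 168 bases before the start codon, and the BIP2 site at chr5:16810656-16810677 on the minus strand, 329 bases before the start codon. Both lie within the annotated gene, upstream of the coding sequence.
BIP1: gataATTGGTCCACGTCAtctc
BIP2: gataATTGGTCCACGTCAtctc
The printed stretches of 22 bases are identical in the pair of genes.

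BIP3 has neither of these motifs in the 500 bases before its start codon. Its 250 bases before the annotated gene start, chr1:2931851-2932100 on the minus strand, are shown because it had the largest ratio of the 36 genes. The capitals mark CGTG, 10 of any base, then ATTGG, which on the other strand reads CCAAT, 10 of any base, CACG.
BIP3: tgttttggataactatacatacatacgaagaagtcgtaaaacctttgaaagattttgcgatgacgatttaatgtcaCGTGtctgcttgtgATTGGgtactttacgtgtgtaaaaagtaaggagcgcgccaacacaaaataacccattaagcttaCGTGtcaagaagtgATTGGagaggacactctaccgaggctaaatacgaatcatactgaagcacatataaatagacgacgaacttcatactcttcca
The spaced motif starts 174 and 96 bases before the gene start. It was chosen after this stretch had been read, and any match to ERSE (CCAAT, 9 of any base, CCACG) is also a match to it. On either strand it occurs in the same window of 7 of the 36 members and in 0.7001% of 26710 promoters, and 6 of those promoters hold it at least 2 times.

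Among the partners of BiP and the ER Hsp90, 3 of 4 were at least 2-fold higher with flg22, or 75%, against 11.3% of all genes. The J-domain gene ERDJ3A had 466 reads in the flg22 library and 34 in the control library, or 6.32 against 0.530 RPKM, an 11.9-fold difference (8.41 to 17.4). It overlaps AT3G08960 on the opposite strand by 60 bases, and that neighbour had 1293 reads in the flg22 library and 1189 in the control library. Without a stated strand, reads from the overlap cannot be assigned. ERDJ3B, the J-domain protein that in Arabidopsis works with BiP and SDF2 in the biogenesis of EFR, had 59.3 RPKM in the flg22 library and 19.1 RPKM in the control library, 3.10-fold higher (2.90 to 3.31). SDF2, its partner, had 44.5 RPKM in the flg22 library and 20.3 RPKM in the control library, 2.19-fold higher (2.02 to 2.37). SDF2 was under the 2-fold limit with 5 RPKM added (log2 ratio 0.97) and when centred on reference genes (0.97). HSP90.7, the GRP94-type Hsp90 of the ER, had 13190 reads in the flg22 library and 8920 in the control library, 128 against 99.4 RPKM, a ratio of 1.29 (1.25 to 1.32). The Hsp90 was thus abundant in both libraries and within 2-fold.

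ERDJ3B and HSP90.7 both hold an ERSE before the start codon, shown in capitals because the motif is shared while the ratios of the genes differ. The ERDJ3B site is at chr3:23153587-23153613 on the minus strand, 263 bases before the start codon, with the motif on the opposite strand. The HSP90.7 site is at chr4:12556058-12556084 on the minus strand, 229 bases before the start codon. HSP90.7 also holds a UPRE-I, not printed, that starts 253 bases before the start codon. ERDJ3B had no UPRE-I in the window searched, so the pair shares the ERSE but is not matched in motif content.
ERDJ3B: tccaCGTGGCTAATATTTATTGGttac
HSP90.7: tgctCCAATACAAAACTACCACGtggc
The ERDJ3B ERSE lies within the annotated gene, and the HSP90.7 ERSE before the annotated gene start. The log2 ratio was 1.58 for ERDJ3B and 0.36 for HSP90.7.

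In the lectin and glycan cycle, 1 of 7 genes was at least 2-fold higher, or 14.3%, against 11.3% of all genes. CNX1, a membrane-bound lectin chaperone, had 13893 reads in the flg22 library and 4420 in the control library, 210 against 76.8 RPKM, a 2.73-fold difference (2.64 to 2.83). The second calnexin gene, CNX2, had 30.9 RPKM in the flg22 library and 23.9 RPKM in the control library, a ratio of 1.30 (1.21 to 1.39). CNX1 made up 88.2% of calnexin reads in the flg22 library and 78.0% in the control library. The coding sequences of the pair are 84.6% identical.

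The calreticulins, soluble lectins of the lumen, differed among themselves. CRT1 had 114 RPKM in the flg22 library and 67.5 RPKM in the control library, a ratio of 1.70 (1.63 to 1.76). CRT2 had 62.5 RPKM in the flg22 library and 35.1 RPKM in the control library, a ratio of 1.78 (1.70 to 1.86). CRT3, the plant-specific calreticulin that EFR accumulation needs in Arabidopsis, had 22.5 RPKM in the flg22 library and 20.3 RPKM in the control library, a ratio of 1.11 (1.04 to 1.18). Its share of calreticulin reads was 14.01% in the flg22 library and 20.2% in the control library. UGGT, the folding sensor that reglucosylates glycans and is also known as EBS1, had 14.8 RPKM in the flg22 library and 16.6 RPKM in the control library, a ratio of 0.888 (0.848 to 0.930). STT3A, a catalytic subunit of the oligosaccharyltransferase, had 28.6 RPKM in the flg22 library and 27.1 RPKM in the control library, a log2 ratio of 0.07 that turned to -0.05 when centred on reference genes. Thus CNX1 alone of the 7 genes passed 2-fold, and the other 6, all 3 calreticulins included, lay within it.

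CNX1 and UGGT carry an ERSE and a UPRE-I that overlap, with the combined stretch in capitals, and are printed because the same pair of motifs stands before genes with unlike ratios. The CNX1 site is at chr5:24829857-24829886 on the minus strand, 240 bases before the start codon. The UGGT site is at chr1:26841518-26841547 on the plus strand, 28 bases before the start codon.
CNX1: tgaaTGACGTGGCCTGTTATGATTGGttag
UGGT: tcaaCCAATCAGTGGCGCCCACGTCAtact
In CNX1 the ERSE reads on the strand opposite to the gene, and in UGGT on the strand of the gene. The CNX1 motifs lie within the annotated gene, and the UGGT motifs before the annotated gene start. From the annotated gene start to the start codon there are 258 bases in CNX1 and 0 in UGGT. This contrast of positions therefore depends on the annotated gene starts. The log2 ratio was 1.44 for CNX1 and -0.16 for UGGT.

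Oxidative folding had 4 of 7 genes at least 2-fold higher with flg22, or 57.1%, against 11.3% of all genes. Protein disulfide isomerases (PDI) form and rearrange disulfide bonds, and ERO1 and ERO2 encode the thiol oxidases that recharge them. ERO1 had 557 reads in the flg22 library and 80 in the control library, 8.02 against 1.32 RPKM, a 6.06-fold difference (4.78 to 7.75). ERO2 had 21.1 RPKM in the flg22 library and 7.72 RPKM in the control library, 2.74-fold higher (2.47 to 3.04). Both oxidase genes were thus higher, and ERO1, the lower of the pair per kilobase of joined exons, had the larger ratio.

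Of the isomerases, PDIL2-2 had 1116 reads in the flg22 library and 205 in the control library, 18.1 against 3.83 RPKM, a 4.73-fold difference (4.08 to 5.52). PDIL1-2 had 59.2 RPKM in the flg22 library and 25.4 RPKM in the control library, 2.33-fold higher (2.20 to 2.47). The other three, PDIL1-1, PDIL2-1 (also UNE5) and PDIL2-3, had ratios between 1.501 and 1.77. Per kilobase of joined exons, PDIL1-1 was the most abundant of the 5 in both libraries. It stood at 106 RPKM in the flg22 library and 59.8 RPKM in the control library. PDIL2-2 made up 5.07% of the reads of the 5 genes in the flg22 library and 1.92% in the control library. PDIL2-1 overlaps AT2G47480 on the opposite strand by 97 bases, a neighbour with 15 reads in the flg22 library and 13 in the control library. With the other PDI genes of the annotation added, 2 of 13 were at least 2-fold higher, or 15.4%, against 11.3% of all genes. The median log2 ratio of the 13 was 0.45.

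PDIL1-1 and PDIL1-2, whose coding sequences are 83.5% identical, both hold an ERSE, in capitals. The PDIL1-1 site is at chr1:7645617-7645643 on the plus strand, 146 bases before the start codon. The PDIL1-2 site is at chr1:29126580-29126606 on the plus strand, 158 bases before the start codon. PDIL1-1 also holds a UPRE-I, not printed, that starts 362 bases before the start codon. PDIL1-2 had no UPRE-I in the window searched.
PDIL1-1: atacCCAATTAGAGATAGCCACGtgga
PDIL1-2: ttatCCAATGAAAACTCTCCACGtgta
The PDIL1-1 ERSE lies within the annotated gene, and the PDIL1-2 ERSE before the annotated gene start. Both genes were higher with flg22 in these libraries, with log2 ratios of 0.81 and 1.19.

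Of the genes for entry into and exit from the ER, 1 of 5 was at least 2-fold higher with flg22. This is 20%, against 11.3% of all genes, and the median log2 ratio of the 5 was 0.90. SEC61α and SEC61β are subunits of the translocon, the channel through which new chains enter. The SEC61α gene AT2G34250 had 13915 reads in the flg22 library and 6452 in the control library, 201 against 107 RPKM, a ratio of 1.88 (1.82 to 1.93). Its copy AT1G29310 had 36.1 RPKM in the flg22 library and 15.7 RPKM in the control library, 2.30-fold higher (2.12 to 2.50), and was under the 2-fold limit with 5 RPKM added (log2 ratio 0.99). The SEC61β gene AT2G45070 had 112 RPKM in the flg22 library and 57.7 RPKM in the control library, a ratio of 1.94 (1.83 to 2.06). All 3 translocon members thus lay near 2-fold.

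SAR1 GTPases start the coat of the vesicles that leave the ER. SAR1B had 84.8 RPKM in the flg22 library and 54.7 RPKM in the control library, a ratio of 1.55 (1.47 to 1.63). The SAR1 gene AT4G02080, named SAR2 in RefSeq, had 62.3 RPKM in the flg22 library and 64.4 RPKM in the control library, a ratio of 0.968 with an interval of 0.908 to 1.03 that holds 1.

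The 3 genes of ER-associated degradation were within 2-fold, with 112 CPM in the flg22 library and 108 in the control library when summed. HRD1A, a membrane ubiquitin ligase, had 6.82 RPKM in the flg22 library and 7.78 RPKM in the control library, a ratio of 0.877 (0.770 to 0.999). HRD3A, the partner of the ligase that receives clients and is also known as EBS5, had 18.5 RPKM in the flg22 library and 20.6 RPKM in the control library, a ratio of 0.901 (0.838 to 0.970). DER1, a derlin, which in yeast takes part in moving clients out of the ER, had 13.9 RPKM in the flg22 library and 8.24 RPKM in the control library, a ratio of 1.69 (1.497 to 1.91). The ligase and its partner were thus slightly lower, and the derlin gene higher, in the flg22 library.

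HRD3A and DER1 both have an ERSE on the strand opposite to the gene, shown for the same contrast. The HRD3A site is at chr1:6282162-6282188 on the minus strand, 176 bases before the start codon. The DER1 site is at chr4:14444743-14444769 on the plus strand, 190 bases before the start codon.
HRD3A: gttaCGTGGCCGGTTACTATTGGatat
DER1: acgaCGTGGCAAGGTATGATTGGataa
The HRD3A motif lies before the annotated gene start, and the DER1 motif within the annotated gene. The log2 ratio was -0.14 for HRD3A and 0.69 for DER1.

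Among the 7 sensors and transcription factors of the response, 2 were at least 2-fold higher, or 28.6%, against 11.3% of all genes. BZIP60, whose mRNA is the splicing target of IRE1, had 4146 reads in the flg22 library and 624 in the control library, 105 against 18.1 RPKM, a 5.78-fold difference (5.31 to 6.30). The gene totals do not separate spliced from unspliced BZIP60 mRNA. NAC062, a membrane-anchored NAC factor of the response, had 2263 reads in the flg22 library and 531 in the control library, 37.2 against 10.04 RPKM, a 3.71-fold difference (3.37 to 4.08). NAC103, a target of bZIP60 in Arabidopsis, was low in both, with 112 reads in the flg22 library and 55 in the control library, or 2.03 against 1.14 RPKM and a ratio of 1.77 (1.27 to 2.49).

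The upstream sensors differed less than BZIP60. IRE1A had 24.2 RPKM in the flg22 library and 15.6 RPKM in the control library, a ratio of 1.55 (1.45 to 1.66). IRE1B had 877 reads in the flg22 library and 708 in the control library, a log2 ratio of 0.10 that turned to -0.02 when centred on reference genes. The bZIP factors that are held in the ER membrane were both within 2-fold. BZIP28 had 22.4 RPKM in the flg22 library and 17.3 RPKM in the control library, a ratio of 1.30 (1.19 to 1.42). BZIP17 had 18.1 RPKM in the flg22 library and 13.6 RPKM in the control library, a ratio of 1.34 (1.22 to 1.46). These ratios describe mRNA, not the splicing or cleavage by which the sensors act.

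BZIP60 holds the UPRE-II core, GACGCGT, on the strand opposite to the gene at chr1:16137622-16137636 on the minus strand, 173 bases before its start codon, and CNX2 holds the same core at chr5:2317058-2317072 on the plus strand, 238 bases before its start codon.
BZIP60: aaaaACGCGTCcata
CNX2: ttgcACGCGTCggtg
The log2 ratio was 2.47 for BZIP60 and 0.36 for CNX2.

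**Figure D3:**
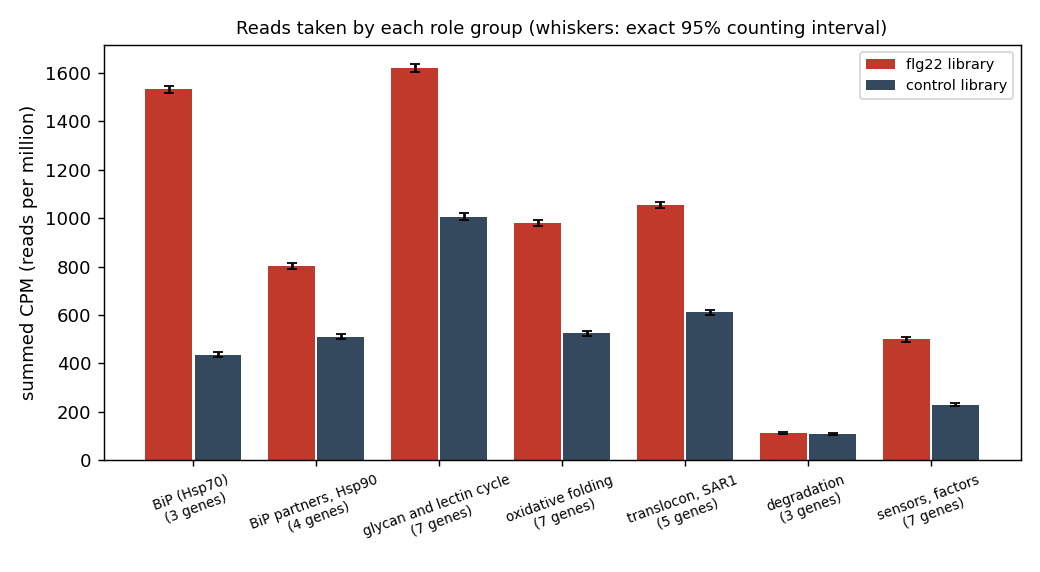
Summed CPM of the 7 roles, with the flg22 library left of the control library bars starting at 0 and whiskers for exact 95% counting intervals. BiP genes took 1531 CPM in the flg22 library and 437 in the control library, and degradation genes 112 in the flg22 library and 108 in the control library.

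The roles were therefore not alike. Summed CPM was 3.51-fold higher for BiP with flg22, 2.17-fold for the sensors and factors and 1.86-fold for oxidative folding. It was 1.73-fold higher for entry and exit, 1.61-fold for lectins and glycans and 1.57-fold for the BiP partners with Hsp90, where HSP90.7 gave 13190 of the 19761 reads in the flg22 library and 8920 of the 10917 in the control library. The order by median log2 ratio differed, with BiP at 1.95, the BiP partners with Hsp90 at 1.34, oxidative folding at 1.19 and entry and exit at 0.90. Sensors and factors followed at 0.50, lectins and glycans at 0.36 and degradation at -0.14. Degradation genes had a ratio of 1.03 (0.979 to 1.09). Without BIP1 and BIP2, the other 34 members had a median log2 ratio of 0.72.

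The 4 ER stress motifs (ERSE, ERSE-II, UPRE-I and the UPRE-II core, on either strand) stood before a larger share of these genes than of all genes. In the 500 bases before the start codon, 15 of 36 members held at least 1, or 41.7%, against 3.59% of 26710 genes. Such elements are known from BiP promoters, so this share is not independent of how the motifs were chosen. BIP1 and BIP2, which hold the same printed stretch, both count in it. Among members at least 2-fold higher, 6 of 14 did, and among the other members 9 of 22 did. ERSE alone stood before 8 members, 22.2%, against 0.517% of all genes, and UPRE-I before 9 members, 25%, against 1.89%. The W box, the WRKY factor motif (TTGACC or TTGACT), stood before 18 members, 50%, against 45.0% of all genes. TL1 (GAAGAAGAA), an element known from ER genes that respond to salicylic acid in Arabidopsis, stood before 12 members, 33.3%, against 17.2%. In the 250 bases before the annotated gene start, 9 members held an ER stress motif, 25%, against 2.18% of promoters. These were 2 of the 14 members at least 2-fold higher and 7 of the other 22, and UPRE-I in that window stood before 0 of the 14 and 5 of the 22. The split between members past and not past 2-fold thus depended on the window, and the window before the start codon was chosen after seeing the data. A match is a string of letters and not a shown binding site.

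Other genes of the ER had a lower median log2 ratio, 0.20, than the 36. Lists of 69 such genes were set up for comparison, of which 64 passed the filter. Of these 7 were at least 2-fold higher, or 10.9%, which is near the 11.3% of all genes, and 0 were 2-fold lower.

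Of these 7 genes, 4 encode subunits of the translocon, from 15 measured genes of the translocon and signal peptidase with a median log2 ratio of 0.51. The 4 are 26.7% of the 15, against 11.3% of all genes. A second SEC61β gene, AT3G60540, had 375 reads in the flg22 library and 25 in the control library, 16.9 against 1.29 RPKM, a 13.05-fold difference (8.70 to 20.4). The SEC61γ genes AT4G24920, AT3G48570 and AT5G50460 were 5.37-fold (4.89 to 5.90), 3.04-fold (2.62 to 3.54) and 2.26-fold (2.09 to 2.45) higher with flg22. SEC61γ is the smallest subunit of the channel, so each kind of subunit had at least 1 gene past 2-fold.

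Among 15 other ER chaperones and isomerases, with a median of 0.18, 1 was at least 2-fold higher, or 6.67%, against 11.3% of all genes. This was P58IPK, a J-domain protein of the ER, at 20.5 RPKM in the flg22 library and 7.97 RPKM in the control library. The next in size were HSP70-17 at a log2 ratio of 0.96 and PDIL5-2 at -0.85. Of 7 other degradation genes, with a median of 0.22, 1 was at least 2-fold higher, or 14.3%, against 11.3% of all genes. It was HRD1B. This second copy of the ligase gene had 16.2 RPKM in the flg22 library and 6.51 RPKM in the control library, a 2.49-fold difference (2.26 to 2.76), unlike HRD1A at 0.877. MNS5 and EBS7 of the same list had log2 ratios of -0.59 and 0.34.

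None of 12 genes of N-glycosylation and glycan trimming was past 2-fold, with a median of -0.01, and MNS3 at 0.58, RSW3 at -0.47 and STT3B at -0.34 were the farthest out. None of 9 COPII coat genes was past 2-fold either, with a median of 0.18 and SEC12 at 0.57. Of 6 further regulators, 1 was at least 2-fold higher, or 16.7%, against 11.3% of all genes. This was BI1, a cell death suppressor of the ER membrane. It had 89.4 RPKM in the flg22 library and 40.8 RPKM in the control library, 2.19-fold higher (2.07 to 2.32). NPR1 and AGB1 had log2 ratios of 0.92 and 0.81. The medians of the glycosylation and coat lists thus lay nearer to that of all genes than the median of the 36 did.

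**Figure D4:**
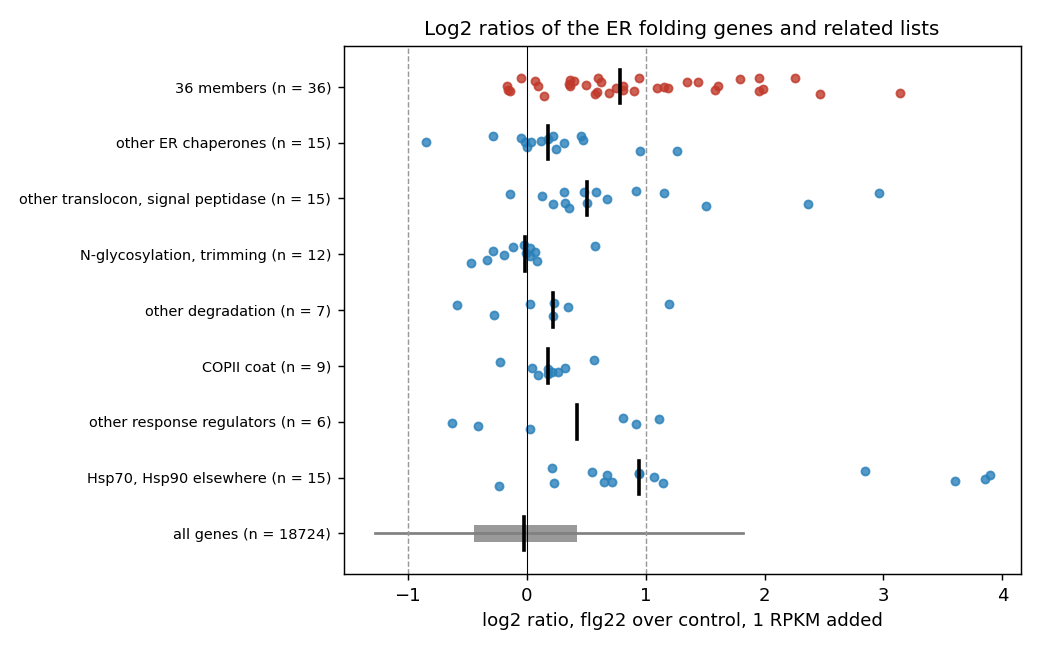
Log2 ratio, flg22 over control with 1 RPKM added, of each gene past the filter in the 36 ER folding genes and in 7 related lists, with black bars for medians and dashed lines at 2-fold. The grey box for all 18724 genes spans the quartiles and its line the 5th to 95th percentile; the median is 0.78 for the 36 genes and -0.01 for N-glycosylation.

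Of 15 Hsp70 and Hsp90 genes of other compartments, 6 were at least 2-fold higher with flg22, or 40%, against 11.3% of all genes. The other 9 lay within 2-fold, and the median log2 ratio was 0.94. The lowest, CPHSC70-1 of the chloroplast, had a log2 ratio of -0.23, and is named outside the naming rule after its value was seen. The 3 farthest from 0 follow. HSP70-4 had 73.7 RPKM in the flg22 library and 4.02 RPKM in the control library. HSC70-2 had 66.0 RPKM in the flg22 library and 3.65 RPKM in the control library. HSP90.1 had 49.4 RPKM in the flg22 library and 3.14 RPKM in the control library. Chaperone genes past 2-fold were thus found outside the ER list as well.

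EFR, the receptor known to need this quality control, had 9.27 RPKM in the flg22 library and 1.78 RPKM in the control library. This is a 5.21-fold difference (4.32 to 6.32). FLS2, the receptor of flg22, had 28.2 RPKM in the flg22 library and 22.3 RPKM in the control library, a ratio of 1.27 (1.19 to 1.34). Of the members known to be needed for EFR accumulation in Arabidopsis, ERDJ3B and SDF2 had log2 ratios of 1.58 and 1.09, past 2-fold. CRT3, UGGT and STT3A, known from the same kind of work, had log2 ratios of 0.14, -0.16 and 0.07, within 2-fold.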

How the data were processed

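RNA was sequenced from 2 groups of seedlings, 1 pooled library each, and groups follow the treatment label. The authors deposited, per the file headers, a read count, an RPKM value and a scaled count signal per gene and library, and, for their own comparison, a fold ratio, a log2 ratio, an FDR, a p-value and its −log10. The scaled signal was not used, nor were 2 of its columns whose headers match no sample label. Bowtie, TopHat, DESeq and TAIR10 are named in the submitters' processing notes. Tool versions, strand and counting program were not given in the sources used here. Deposited RPKM equalled the deposited count divided by listed length and library total. The listed length was a median 0.959 of the gene span and 1.42 times the joined exons over 16093 genes, so levels were set between genes only per joined exon.

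Log2((flg22 RPKM + 1)/(control RPKM + 1)) was computed, and genes averaging under 1 RPKM were filtered out. Reads gave ratios with exact Clopper-Pearson 95% intervals, which cover counting error only. Python 3.11.15, pandas 2.3.3, scipy 1.17.1 and Biopython 1.88 were used, and the code was tested on simulated data. RefSeq TAIR10.1 held 26719 of 27416 identifiers and all 36 members. Its genome gave the motif windows, searched on both strands. Every member could be named. Of each related list, the 3 genes farthest from 0 and any gene past 2-fold, where 5 or fewer were, could be named. The members and lists were chosen with earlier results of these data known. Alternatives covered the added constant, the filter, the scaling, the fold limit and the length.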

Additional observations from a re-analysis of the deposited data

How the results depend on the processing

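No paired analysis was possible because each group has 1 library and the labels carry no replicate number. No member reached 2-fold lower under any of the alternatives run, and no called result changed sign. Of the 14 members at least 2-fold higher, 12 passed with 5 RPKM added (without SDF2 and SEC61α AT1G29310), 11 with a filter at 5 RPKM (without BIP3, ERDJ3A and ERO1) and 13 when centred on reference genes (without SDF2). At 1.5-fold 23 members were higher and at 4-fold 3. Centring on 9 reference genes lowered all log2 ratios by 0.12, brought the members' median to 0.66 and that of the related ER lists to 0.076, and put 6 members below 0 in place of 4. Over all genes, 2111 passed 2-fold upward and 1548 downward. These counts were 1392 and 830 with 5 RPKM added, 3637 and 3494 at 1.5-fold, and 781 and 279 at 4-fold. The related lists had 12 genes higher and 3 lower at 1.5-fold and 2 higher at 4-fold. With totals that left out the most abundant genes, the members' share of reads rose in both libraries. It was 0.681% in place of 0.660% in the flg22 library, and 0.363% in place of 0.343% in the control library. The cause of these moves was not tested. Alternatives chosen after seeing the data were RPKM on joined exons, which left the count at 14 and the median at 0.79, promoter windows of 500 bases before the gene start or the start codon, and the spaced BIP3 motif. Depth limited BIP3 most, with 7 reads in the control library.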

Other observations

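The W box, which stood before a like share of the ER folding genes and of all genes, was more frequent over the whole table among genes higher with flg22. Of 5296 genes past the filter with a W box in the 250 bases before the gene start, 942 were at least 2-fold higher with flg22, or 17.8%, against 8.75% of those without one. Of 488 genes with an ER stress motif in that window, 76 were at least 2-fold higher, or 15.6%, against 11.2% of those without one. By motif, these were 33 of 131 genes with the UPRE-II core, or 25.2%, 37 of 294 with UPRE-I, or 12.6%, 8 of 71 with ERSE, or 11.3%, and 0 of 14 with ERSE-II. These shares are descriptions of 1 library per group.

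The next genes were chosen after their values were seen. SEC31A, a COPII coat gene under the filter on low levels, had 62 reads in the flg22 library and 8 in the control library, a ratio of 6.74 (3.22 to 16.3). The site-1 and site-2 proteases that cut bZIP28 and bZIP17 were lower with flg22, but within 2-fold. Counting intervals lay wholly below 1 for both, as they did for 39.5% of all genes. S1P had 797 reads in the flg22 library and 955 in the control library, and S2P had 162 in the flg22 library and 247 in the control library, with ratios of 0.726 (0.660 to 0.798) and 0.570 (0.465 to 0.698). TBF1, the factor known to bind TL1, was listed at 0 in both libraries, and 4002 of 27416 genes were listed so. Whether a gene listed at 0 was silent or not counted was not tested.

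Among the reference genes, UBC9 had 164 RPKM in the flg22 library and 49.8 RPKM in the control library, a log2 ratio of 1.70. The other reference genes past the filter were within 2-fold. HEL, the reference gene under the filter, was listed at 0 in both libraries.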
